A study of Rattus norvegicus with 4 samples.

Results

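The genes described here encode 10 integrin subunits of leukocytes, chosen by name: the beta-2 family (Itgb2 with its alpha partners Itgal, Itgam and Itgax), the alpha-4 and beta-7 subunits (Itga4, Itgb7), the fibronectin receptor subunits (Itga5, Itgb1) and the alpha-v and beta-5 subunits (Itgav, Itgb5). They were found by matching probe accessions to rat gene symbols, and 8 of the 10 were measured, among 16506 named genes in all. Itgax and Itgav were not analysed here. The samples were 4 one-colour arrays, labelled as biological replicates of 1 group. The group was NR8383, an established macrophage line that came from lavage of a normal rat lung and grows partly attached and partly floating. The cells, described as being past 20 passages and kept in 15% serum, had been seeded for 48 h in 25 cm2 flasks, and the condition was a 4 h incubation in DMEM with 10% fetal bovine serum. The labels also carry the letters ALI, which they do not spell out. No label says whether the replicates were separate cultures, and with 1 condition there is no comparison between treatments.

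Integrins are receptors made of 1 alpha and 1 beta chain that join the cell surface to matrix or to other cells, and a chain without a partner is generally not carried to the surface. Beta-2 pairs are found on leukocytes: alpha-L beta-2 (LFA-1) and alpha-M beta-2 (Mac-1, complement receptor 3) bind ICAM proteins, and Mac-1 also takes up particles coated with complement fragment iC3b. Alpha-4 pairs with beta-1 to bind VCAM-1 and fibronectin, or with beta-7 to bind the gut addressin MAdCAM-1. Alpha-5 beta-1 is the classical fibronectin receptor, and alpha-v beta-5 binds vitronectin and helps phagocytes take up apoptotic cells.

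Of the 8 measured integrins 5 were detected, which means that on every array the scanner software placed most spots of a probe well above background. They were Itgb2, Itgam, Itga4, Itga5 and Itgb1, and among all named genes 53.1% were detected. Itgal and Itgb5 were well above background on no array, as were 34.4% of named genes, and Itgb7 was so on replicate 4 alone. The chains detected therefore include both chains of Mac-1, of the alpha-4 beta-1 receptor and of the alpha-5 beta-1 receptor at the transcript level. Protein was not measured. In total RNA of a culture, fewer cells with a transcript and less of it per cell cannot be told apart.

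**Figure D1:**
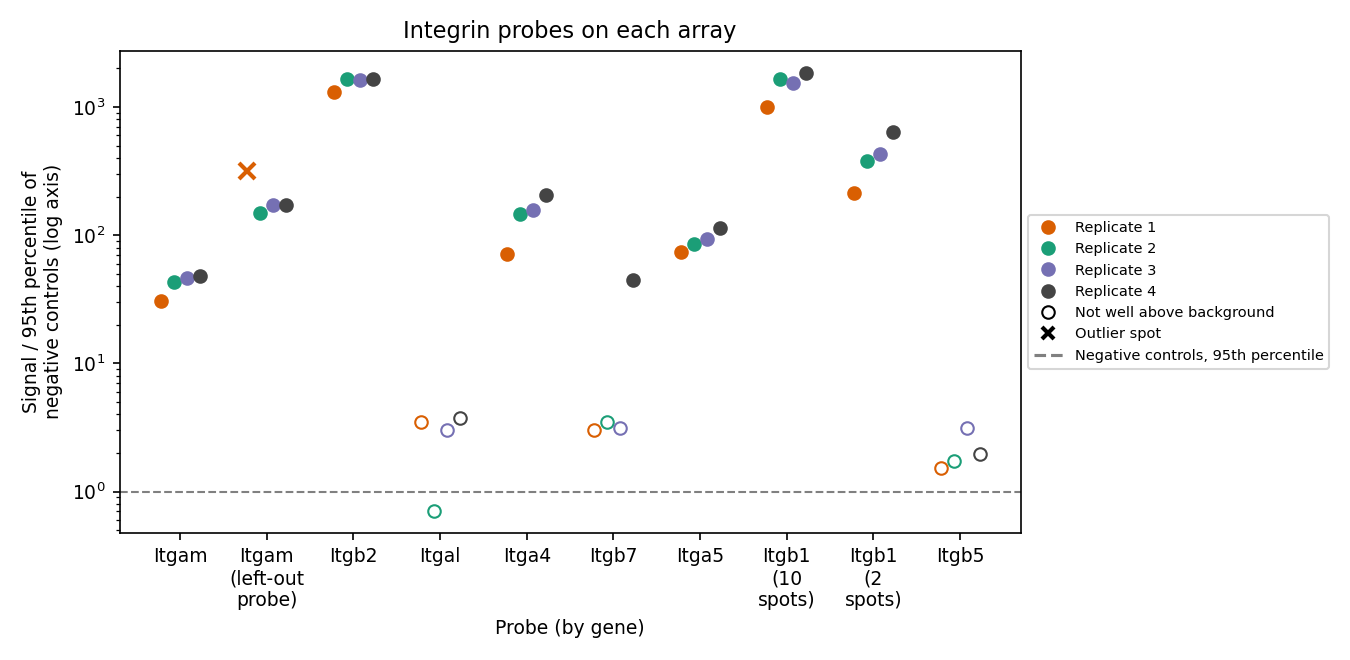
Processed signal of each integrin probe divided by the 95th percentile of negative control spots on the same array, on a log axis, with 1 point per array, open where the probe was not well above background and a cross where the spot was an outlier. Probes of Itgam, Itgb2, Itga4, Itga5 and Itgb1 lie far above the dashed line on all 4 arrays, Itgal and Itgb5 stay near it, and Itgb7 rises on replicate 4 alone; heights of different probes cannot be compared.

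The macrophage label was checked against markers. Of 14 macrophage genes 11 were detected, among them Cd68, Csf1r and Spi1, and Marco, Mertk and C1qa were well above background on some arrays. Mertk, so on 3 arrays, had a spot in or at the margin of a dim patch of the array surface described below. None of 8 granulocyte and none of 4 platelet genes was detected, against 53.1% of named genes, while the counts were 2 of 11 for lymphocytes, 2 of 5 for dendritic cells and 2 of 12 for epithelium and stroma. The 75th percentile of signal ran from 83.4 on replicate 1 to 167 on replicate 4, and the 95th percentile of negative controls from 3.07 to 3.60. Replicate 1 stood apart from the rest: across 8772 detected genes, which are not independent, its correlations were 0.969 to 0.978 and those among the others 0.986 to 0.993. Levels below are log2 of the processed signal over the 75th percentile of the same array, so that 0 means a signal equal to that percentile. Because probes bind differently, a level may be compared between arrays for 1 probe but never between genes.

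Stretches upstream of 3 genes show how differently these loci are built: Itgam, a detected leukocyte chain, Itgb1, a detected chain that most cell types use, and Itgb5, a chain that was well above background on no array. Each is the 250 bases before the transcript start in RefSeq (assembly GRCr8), written 5′ to 3′ on the gene's strand. Capitals mark GAGGAA, the core of the purine box bound by PU.1 (the product of Spi1, which was detected at 3.78 ± 0.11, SD, n = 4), searched on both strands, where TTCCTC is its reverse complement and overlaps no GAGGAA. Itgam lies at chr1:192089342-192089591 on the plus strand, Itgb1 at chr19:73602027-73602276 on the plus strand and Itgb5 at chr11:80449374-80449623 on the minus strand.
Itgam: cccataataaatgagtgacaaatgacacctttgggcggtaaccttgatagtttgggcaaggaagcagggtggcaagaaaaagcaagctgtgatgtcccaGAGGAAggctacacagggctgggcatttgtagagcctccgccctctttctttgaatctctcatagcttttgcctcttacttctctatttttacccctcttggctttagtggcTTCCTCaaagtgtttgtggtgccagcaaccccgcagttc
Itgb1: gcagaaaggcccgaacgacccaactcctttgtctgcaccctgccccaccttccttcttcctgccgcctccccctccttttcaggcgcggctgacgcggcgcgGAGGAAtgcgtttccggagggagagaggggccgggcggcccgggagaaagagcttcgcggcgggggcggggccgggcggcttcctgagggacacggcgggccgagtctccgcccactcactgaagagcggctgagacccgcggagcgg
Itgb5: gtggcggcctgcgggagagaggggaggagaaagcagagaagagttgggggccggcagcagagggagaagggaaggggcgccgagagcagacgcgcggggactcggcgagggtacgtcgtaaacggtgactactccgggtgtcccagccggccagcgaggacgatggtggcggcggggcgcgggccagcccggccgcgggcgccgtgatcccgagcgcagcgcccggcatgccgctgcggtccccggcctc

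The Itgam stretch holds 2 matches, the Itgb1 stretch 1 and the Itgb5 stretch 0. Among all 33469 such stretches, 23.3% hold at least 1 match and 3.39% at least 2. The 3 also differ in CG dinucleotides: Itgam has 3, Itgb1 has 28 and Itgb5 has 33, beside a median of 5 over all stretches, and 3.60% of stretches have at least as many as Itgb5. Of the other members with an entry in the table, Itga5 and Itgav have 1 match each, and Itga4, Itgb7 and Itgax have 0, although Itga4 was detected. Itgb2 and Itgal have no entry, so their stretches could not be searched. These letter matches describe the windows, and no binding was measured.

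Itgb2 encodes the beta chain shared by the leukocyte integrins LFA-1 and Mac-1. Its processed signal was 4226, 5465, 4984 and 5955 on replicates 1 to 4, and the lowest was 1302 times the 95th percentile of negative control spots. As levels these were 5.66, 5.61, 5.30 and 5.15, a mean of 5.43 ± 0.24 (SD, n = 4). The arrays thus lay within 1.42-fold of each other, with replicate 4 lowest in level and highest in unscaled signal, on the array with the highest 75th percentile.

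Itgam encodes alpha-M (CD11b), a chain of Mac-1 and a standard surface marker of myeloid cells. The probe that entered its level read 99.8, 144, 142 and 173, which is 30.7 to 48.2 times the negative control percentile. Its levels were 0.26, 0.36, 0.16 and 0.05, a mean of 0.21 ± 0.13 (SD, n = 4). No array stood apart for this probe: the whole range was 1.24-fold, and the software's own error of each spot was between 10.1% and 10.5% of the signal.

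A second Itgam probe was left out of that level because the software marked its only spot as non-uniform on replicate 1. On replicates 2 to 4 it read 492, 526 and 619, or levels of 2.13, 2.06 and 1.89 with a mean of 2.03 ± 0.13 (SD, n = 3). On replicate 1 its processed signal was 1021, a level of 3.61, while the median pixel of that spot was 448 against 505, 525.5 and 679.5 on the other arrays. With the local background subtracted and divided by the array's 75th percentile, the median pixel was 5.06 on replicate 1 and 4.28, 3.95 and 3.90 on replicates 2 to 4, so replicate 1 was the highest on that scale too, by a smaller margin. With outlier spots kept, an alternative added after seeing the data, the mean Itgam level became 1.29 and replicate 1 lay 0.82 above the others instead of 0.07.

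Itgal encodes alpha-L (CD11a), the LFA-1 chain that is abundant on lymphocytes and many other leukocytes. Its probe read 11.3, 2.35, 9.26 and 13.4, each with an error between 2.36 and 3.67. It was well above background on no array, lay below the negative control percentile on replicate 2 (0.71 times) and at 3.02 to 3.72 times that percentile on the others. By the looser flag of a positive and significant signal it was present on 3 of 4 arrays. In limma's one-sided test against the negative control percentile it passed with an adjusted p of 0.0266, a call that 69.8% of named genes also received.

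Itga4 encodes alpha-4 (CD49d), the chain of VLA-4 that binds VCAM-1 and fibronectin. Its signal was 229 on replicate 1 and then 488, 484 and 744, and its levels were 1.46, 2.13, 1.94 and 2.15, with a mean of 1.92 ± 0.32 (SD, n = 4). Replicate 1 lay below all other arrays, 0.61 under their mean, and the others lay in a narrow band from 1.94 to 2.15. A deviation of replicate 1 by more than 0.5 downward was found in 13.5% of detected genes.

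Itgb1 encodes beta-1, the partner of both alpha-4 and alpha-5 and of many other alpha chains. The array carried 1 probe for it printed on 10 spots and 1 printed on 2 spots. The first read 3228, 5479.85, 4696 and 6661 (levels 5.28, 5.61, 5.22 and 5.32, mean 5.35 ± 0.18, SD, n = 4), and the second 698, 1257, 1326 and 2314 (levels 3.07, 3.49, 3.39 and 3.79, mean 3.43 ± 0.30, SD, n = 4). The probes ordered the arrays differently, since replicate 2 was highest by the first and replicate 4 by the second, while replicate 1 was lowest by the second only. By the first, replicate 3 was lowest, with low spots at 4.78 and 5.03 in its mean. Averaged, the gene read 4.17, 4.55, 4.30 and 4.55, a mean of 4.39 ± 0.19 (SD, n = 4).

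Repeated spots show how far single Itgb1 readings spread within an array. Among the 10 spots, outliers left out, the SD between single spots was 0.07 to 0.18 on an array. The SD of the array means was 0.18. Each of these means averages 8 to 10 spots, so the spread between single spots enters it reduced and the SDs are not directly comparable. The pair of spots of the other probe had an SD of 0.01 on replicate 2 and of 0.37 on replicate 4. Of the 10 spots 1 lay in or at the margin of a dim patch of the array surface, the area that held all 77 detected probes lower by more than 2 log2 units on replicate 4. This spot read 5.36 and 5.71 on replicates 1 and 2, then 4.78 on replicate 3 and 3.55 on replicate 4. It was marked as an outlier on replicate 4 only, so its low value on replicate 3 entered the mean. Another spot, outside the patch and its margin, read 5.29, 5.75, 5.03 and 4.30 on replicates 1 to 4. That spot too was an outlier on replicate 4 only. On replicate 3 the remaining spots read 5.22 to 5.33.

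Itga5 encodes alpha-5, which with beta-1 forms the fibronectin receptor. Its signal was 242, 282, 288 and 407, between 74.6 and 113 times the negative control percentile. The levels were 1.54, 1.33, 1.19 and 1.28, with a mean of 1.33 ± 0.15 (SD, n = 4). Replicate 1 was the highest array by level, the reverse of Itga4, although the range of levels was only 1.28-fold. By the background-subtracted median pixel over the array's 75th percentile, replicate 1 was instead the lowest. It stood at 2.17, against 2.51, 2.47 and 2.57 on replicates 2 to 4.

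Itgb7 encodes beta-7, the partner of alpha-4 on gut-homing lymphocytes and of alpha-E on lymphocytes of epithelia. Its single spot read 9.86, 11.6 and 9.64 on replicates 1 to 3 and 160.2 on replicate 4, which is 13.8 times the highest of the others. It was well above background on replicate 4 alone, at 44.5 times the negative control percentile against 3.04 to 3.48 elsewhere. The median pixel was also highest on replicate 4, at 39.5, 40, 42 and 141, and no outlier flag was set. Of 20990 named probes 606 (2.89%) were well above background on replicate 4 alone, and for 28 of these replicate 4 exceeded the mean of the others by more than 3 log2 units, as Itgb7 did by 3.29. With 1 spot per array, whether this is a difference between cultures or between spots was not tested. In limma's test Itgb7 passed with an adjusted p of 0.00769 over the 4 arrays.

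Itgb5 encodes beta-5, which pairs with alpha-v. Its probe read 4.95, 5.80, 9.65 and 7.11, each with an error of 2.68 to 3.27, or 1.52 to 3.15 times the negative control percentile. It was well above background on no array but positive and significant on all 4, and its adjusted p in limma's test was 0.00339. Itgal and Itgb5 thus sit in the zone where the detection call depends on the rule, unlike the 5 detected integrins, whose lowest value on any array was 30.7 times the negative control percentile.

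**Figure D2:**
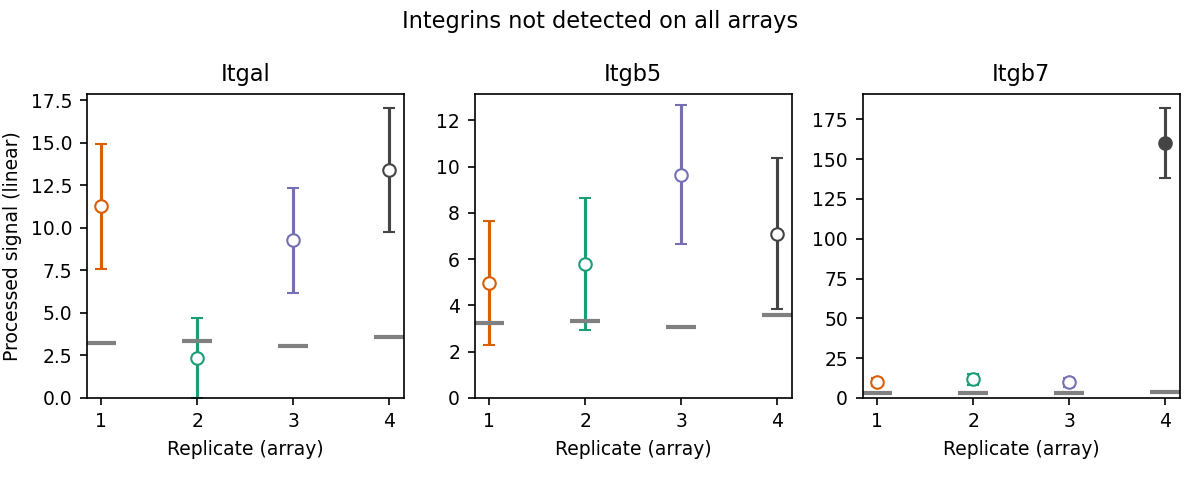
Processed signal (linear axis, own scale in each panel) of the 3 integrins not detected on all arrays, with the software's error of the spot as bars, open points where the spot was not well above background and grey dashes at the 95th percentile of negative controls. Itgal falls to 2.35 on replicate 2, Itgb5 stays between 4.95 and 9.65, and Itgb7 rises to 160.2 on replicate 4.

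Between arrays the SDs of the 5 detected integrins ran from 0.13 (Itgam) to 0.32 (Itga4) with a median of 0.19, beside a median of 0.24 over all detected genes (interquartile range 0.15 to 0.36). Without replicate 1 the medians were 0.14 and 0.15. Replicate 1 was the array farthest from the mean for Itga4, Itga5 and Itgb1, that is 3 of 5, beside 54.7% of detected genes. It lay below the range of the others for Itga4 and Itgb1 (2 of 5, beside 32.8%) and above it for Itgb2 and Itga5 (2 of 5, beside 42.3%).

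The direction of replicate 1 was kept under 7 processing alternatives for 2 of the genes. Not all of the 7 could change it. Taking the median of detected probes, or keeping dim probes, returns the same value for each member and for any detected gene with 1 probe. Relative to the mean of the other arrays, Itga4 lay between -0.70 and -0.51 and Itgb1 between -0.58 and -0.24, and 36.4% of detected genes likewise lay below in every setting. For Itgb1 this rests mainly on the probe with 2 spots (-0.49), since the probe with 10 spots lay at -0.11. That probe was lowest on replicate 3, where low spots at 4.78 and 5.03 entered its mean. For the rest the sign depended on the processing: Itgb2 went from 0.31 to -0.09 and Itga5 from 0.27 to -0.19 under normexp correction of the median signals, and Itgam from 0.07 to -0.02 when the 75th percentile was taken over detected probes.

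**Figure D3:**
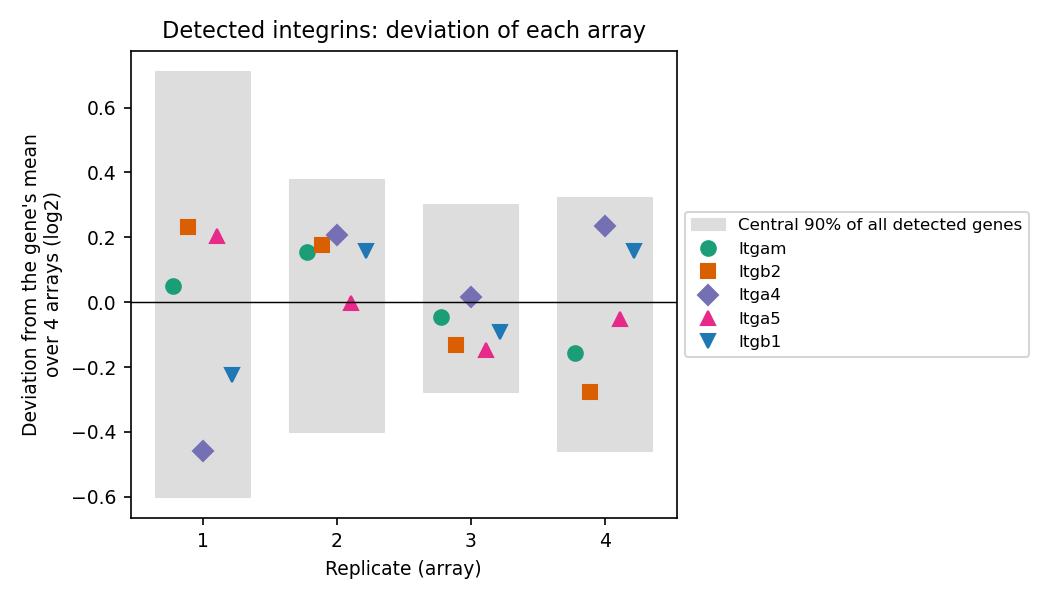
Deviation of each array from the gene's own mean over 4 arrays (log2) for the 5 detected integrins, with grey bars for the central 90% of the 8772 detected genes on that array. Every point lies inside the grey bar of its array; Itga4 and Itgb1 are below 0 on replicate 1, and Itgam and Itgb2 are lowest on replicate 4.

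Other integrin subunits were detected in part, 4 of 10 measured beside 53.1% of named genes. Itga6, a laminin receptor chain, lay at -0.45 ± 0.21 (SD, n = 4), and Itgb3, the beta chain of the vitronectin receptor alpha-v beta-3, at -0.72 ± 0.14. Each is a mean of 2 probes that lay far apart, at 0.47 and -1.36 for Itga6 and at 0.32 and -1.75 for Itgb3. The SDs cover the spread between arrays and not that between probes. Itgae, the alpha-E chain that pairs with beta-7, read -0.17, -0.61, -1.15 and -2.18. Its only spot lay in the dim patch or its margin, an area defined by low signals on replicate 4, and the part of the patch in these values was not tested. Itga7 and Itga8, chains known from muscle and mesenchymal cells, were well above background on no array. Itgad, chosen after its values were seen, which encodes the alpha-D partner of beta-2 and follows Itgam and Itgax in the RefSeq gene order, was well above background on 3 arrays, with signals of 14.5, 16.6, 11.8 and 20.5.

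Of the ligands, 4 of 11 on cell surfaces and 3 of 12 in matrix or plasma were detected, beside 53.1% of named genes. Icam1, the main ligand of LFA-1 and Mac-1, lay at 4.50 on replicate 1 and at 5.54, 5.27 and 5.31 on the others (mean 5.16 ± 0.45, SD, n = 4), so that replicate 1 was below the rest, at -0.87 relative to their mean and at -1.27 to -0.85 under 7 alternatives. Replicate 1 lay more than 0.5 below the others in 13.5% of detected genes. Icam2, another LFA-1 ligand, went the other way, at -1.68 on replicate 1 and at -3.06, -2.39 and -2.49 on the others (mean -2.40 ± 0.57). Its difference of 0.97 ran from 0.15 to 1.01 under the alternatives. Icam4, a ligand on red cells, averaged -2.22 ± 0.21. Jam2, which binds alpha-4 beta-1, and Cdh1, the epithelial ligand of alpha-E beta-7, were well above background on no array. Among soluble ligands, Mfge8, which bridges apoptotic cells to alpha-v integrins, lay at 2.79 on replicate 1 and at 1.89, 1.88 and 1.58 on the others, a difference of 1.01 that stayed between 0.77 and 1.03 under the alternatives. In 18.5% of detected genes replicate 1 lay more than 0.5 above the others. Tgfb1, whose latent form is opened by alpha-v integrins, averaged 3.59 ± 0.09, and the matricellular gene Ccn1 -2.60 ± 0.22. Vtn and Spp1, which encode vitronectin and osteopontin, had no array with a signal well above background. The Spp1 spot lay in the dim patch or its margin.

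The machinery that switches integrins on was detected for 10 of 14 genes, and all 4 genes that hold them back were detected, beside 53.1% of named genes. Tln1, the talin that binds beta tails, averaged 5.49 ± 0.15 (SD, n = 4), and Fermt3, the kindlin of blood cells, 3.04 ± 0.08. Fermt2, the kindlin of most other tissues, was detected at -0.33 ± 0.17, whereas the epithelial Fermt1 and the Rap1 activator Rasgrp2 of platelets were well above background on no array. The inhibitors Itgb1bp1, which binds the beta-1 tail, Sharpin, which binds alpha tails, and Flna, which competes with talin, lay at 2.27 ± 0.10, 3.86 ± 0.35 and 4.25 ± 0.22.

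Genes of signalling and of the link to actin were detected for 19 of 22, beside 53.1% of named genes. The Src-family kinase Fgr, which acts below beta-2 integrins in phagocytes, averaged 2.80 ± 0.30 and the kinase Ptk2b (Pyk2) 2.98 ± 0.30 (SD, n = 4). Both read highest on replicate 1, and their difference from the others stayed at 0.46 or more under 7 alternatives: Fgr 3.24 against 2.61 to 2.73 and Ptk2b 3.40 against 2.67 to 2.96. Across all detected genes, replicate 1 lay above the others in every setting for 40%, and by more than 0.5 for 18.5%. The exceptions were Ptk2 (focal adhesion kinase), Src and the adaptor Bcar1, none of them well above background on any array. All 8 surface partners were detected, beside 53.1% of named genes, among them Cd47, an integrin-associated protein, at 4.30 ± 0.14 and the tetraspanins Cd9 and Cd81 at 4.86 ± 0.10 and 3.87 ± 0.22.

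**Figure D4:**
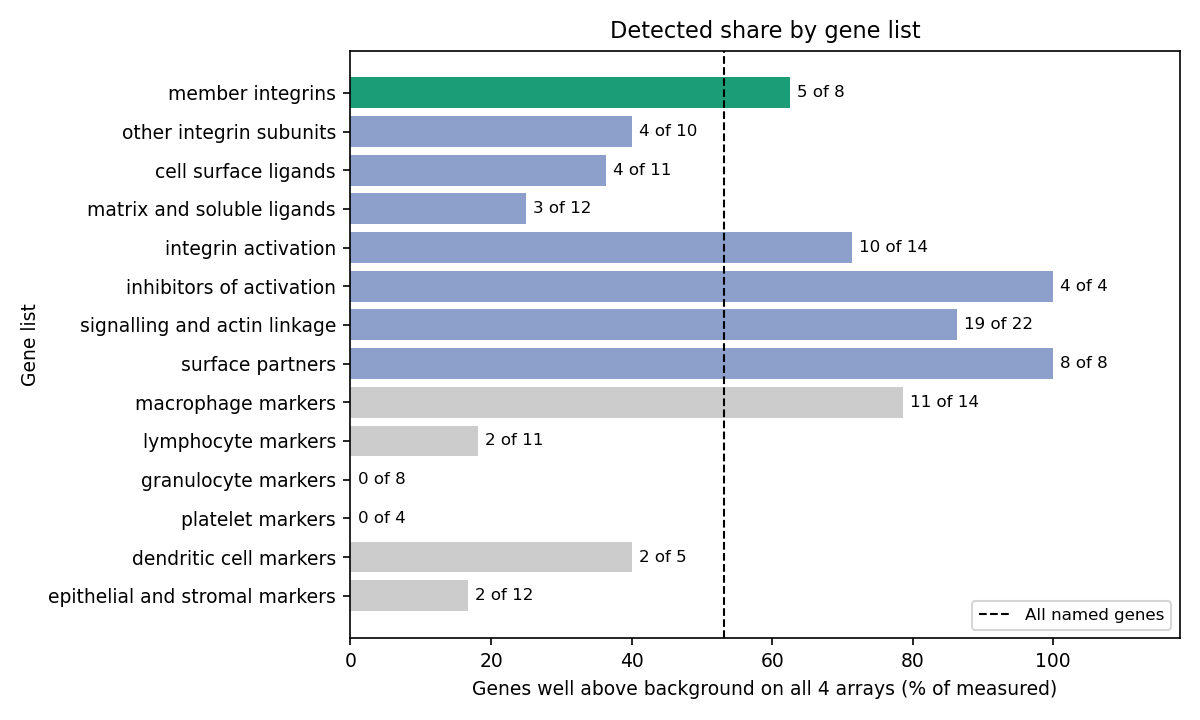
Share of measured genes that were well above background on all 4 arrays, in percent, for each gene list, with the counts beside the bars and a dashed line at the 53.1% of all named genes. The member integrins stand at 5 of 8, ligands below the line at 4 of 11 and 3 of 12, and signalling genes above it at 19 of 22.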

How the data were processed

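Total RNA (100 ng, Cy3-labelled, per the labels' protocols) was measured on 4 one-colour arrays of 1 slide. The submitters' processing notes name Agilent Feature Extraction 11.0.1.1 for the spot readings. Each deposited file gives, per spot, the linear intensity (processed signal, median foreground and background) and flags, with no scaling between arrays, per the file headers. Slide and scan hold 1 group, so no batch could be tested.

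Control spots and outlier spots (440 to 1206 per array) were left out, no spot was saturated, and log2 signals of a probe's spots were averaged, which left out 318 of 45598 probes. Each array's 75th percentile over the remaining probes was subtracted. Accessions without versions were matched to RefSeq symbols of GRCr8, which named 17614 of 40539. A probe was detected if a share above 0.5 of its spots was flagged well above background on every array, a gene if any probe was, and its level is the mean of detected probes. Values of probes that are not well above background are bounds. The number of arrays limits the precision.

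Members and lists were chosen with earlier results of these data known. All members are named, and of each other list the first 3 detected and first 2 never detected, with all exceptions where these are 3 or fewer. A gene that this rule names is not reported here. No genes of like pattern were sought, since 4 arrays are too few. Detection against negative controls used limma 3.58.1 in R 4.3.3 and was tested on simulated data.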

Additional observations from a re-analysis of the deposited data

How the results depend on the processing

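Of the 8 measured integrins the same 5 were detected with each replicate left out in turn, on at least 3 arrays, by the first probe of a gene, without the dim patch and with outlier spots kept. The first 3 of these settings could not have changed the call. Leaving out a replicate or asking for 3 arrays only loosens the rule. Itgal, Itgb5 and Itgb7 were well above background on too few arrays to enter. Only Itgb1 had 2 probes in the main call, and both were detected. The positive-and-significant flag called 7 (all but Itgal) and limma against negative controls 8, where 66.9% and 69.8% of all named genes were called. Between 8357 and 11516 named genes were called over all alternatives. The positive-and-significant flag raised cell surface ligands to 8, matrix ligands to 6, lymphocyte genes to 4, platelet genes to 2 and epithelial and stromal genes to 5. Limma raised other integrin subunits to 7, cell surface ligands to 7, matrix ligands to 6, lymphocyte genes to 4, granulocyte genes to 1, platelet genes to 2 and epithelial and stromal genes to 5. Platelet genes numbered 1 on at least 3 arrays, and between 0 and 1 with a replicate left out (1 without replicate 1). Without the dim patch 1 of 10 epithelial and stromal genes was detected, since fewer were measured. Of the recomputed member levels 44 moved by less than 1 SD and 11 by more, and of the differences between replicate 1 and the others 31 and 4. These counts are no measure of stability, since part of them was fixed in advance. Leaving out a replicate cannot move a mean by 1 SD. Taking the median of detected probes, or keeping dim probes, left every member value as it was. Taking the percentile over detected probes shifted all detected genes by a median of -3.08, and normexp by -0.30, so levels have meaning only within a setting. Dim signals near the negative controls limit what can be said of Itgal, Itgb5 and, on replicates 1 to 3, Itgb7. Normexp used median signals. No paired analysis was possible because there was 1 group.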

Other observations

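Some genes used as markers of other cells were detected, and they were chosen here after their values were seen. Cd3d, a chain of the T cell receptor complex, lay at -0.69 ± 0.14 (SD, n = 4) and the kinase Lck at -0.48 ± 0.29, while Cd3e, Cd2, Cd5 and Cd8a were well above background on no array. Batf3, a transcription factor of dendritic cells, lay at 0.96 on replicate 1 and at 0.14, 0.10 and -0.01 on replicates 2 to 4, and the lectin receptor Clec9a was detected by 1 of its 2 probes. Pecam1, which endothelium and many leukocytes carry, read 1.19 on replicate 1 and -0.50, -0.05 and 0.12 on replicates 2 to 4. Cdh5, the other detected gene of the epithelial and stromal list, lay at -0.87 ± 0.14 (SD, n = 4). Cdh5 had a spot in the dim patch or its margin. The plasma membrane protease receptor Plaur, which associates with beta-1 and beta-2 integrins, averaged 0.68 ± 0.09.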
